A study of Homo sapiens with 6 samples.

Results

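The genes examined here encode 9 enzymes that carry farnesyl diphosphate through squalene and lanosterol to cholesterol: FDFT1, SQLE, LSS, CYP51A1, MSMO1, NSDHL, EBP, SC5D and DHCR7. They were taken by gene symbol, in pathway order, from 26255 genes, and each of the 9 symbols was found in every sample. Their transcripts were compared between 22RV1 cells treated for 24 h with DMSO, the vehicle (3 samples), and 22RV1 cells treated for 24 h with 10 nM bruceantin (BCT, a quassinoid from plants; 3 samples). All samples were grown in RPMI 1640 with 10% FBS, in which the serum is a source of cholesterol. 22RV1 is a single human line of castration-resistant prostate cancer (CRPC), and the comparison asks which transcripts differ after BCT in such cells. The labels do not say whether the 3 samples of a group came from separate cultures, so the p-values measure the spread between these samples, which may be technical.

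Cells make cholesterol in the membrane of the endoplasmic reticulum. The mevalonate arm builds farnesyl diphosphate, a precursor that also feeds ubiquinone, dolichol and protein prenylation. Squalene synthase commits it to sterols, squalene is closed to lanosterol, and lanosterol is then trimmed of methyl groups and has its double bonds moved and reduced. Most genes of the route are known targets of SREBP transcription factors, which are held in the endoplasmic reticulum by INSIG proteins when sterols are plentiful. Prostate cancer cells use cholesterol for membranes and as the starting point of androgen synthesis.

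The deposited value is FPKM, a read abundance corrected for transcript length and for the number of mapped fragments in the library, so levels can be set side by side between genes on a per-length scale. Fold changes are differences of mean log2(FPKM + 0.1), BCT against DMSO, which understate the change of genes with low values. A gene was called when its absolute log2 fold change was above 0.85 and its adjusted p (limma with Benjamini-Hochberg adjustment over the 12729 genes whose mean reached 1 FPKM) was below 0.05. FPKM holds no read counts. From the ratios of low values, depth relative to DMSO replicate 1 was 0.871 to 1 with DMSO and 1.05 to 1.13 with BCT. The FPKM sum of a sample was 1169649 to 1572321 with DMSO and 757534 to 799838 with BCT, and MIR6087 alone held 31.7% to 55.3% of it. With samples scaled to equal sums the all-gene median of the log2 fold change moved from -0.04 to 0.72, and with MIR6087 left out of the sums it moved to 0.34. BCT replicate 1 was the BCT sample with the highest value in 8 of the 9 sterol genes, as it was in 72.9% of all tested genes that were lower with BCT. DMSO replicate 1 was the highest DMSO sample in all 9, against 41.0% of those genes. Ranges of the fold changes are therefore also given without each of these samples.

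All 8 luminal prostate markers were present, among them HOXB13, FOLH1, KLK2, KLK3, KRT8, KRT18 and EPCAM, with KLK3 the lowest at a mean of 4.89 FPKM over all samples. Their summed level was 859 to 866 FPKM with DMSO and 1833 to 2009 FPKM with BCT, and KRT8 and KRT18, which the files list at one joint position, made up most of it. Of the 8 markers, KLK2 and KLK3 were called lower, KRT8 and KRT18 were called higher and the others were not called. Over all tested genes 17.8% were called lower and 13.9% higher. None of the 3 leukocyte markers or the 2 endothelial markers reached 1 FPKM in any sample, and CD3E and CDH5 were listed at 0 in all DMSO samples. The 3 fibroblast markers summed to 2.45 to 2.66 FPKM with DMSO and 5.80 to 6.94 FPKM with BCT, through COL1A1, which rose from 1.43 ± 0.175 to 5.83 ± 0.690 FPKM (SD, n = 3 each). LUM went the other way without overlap, from 1.01 ± 0.0746 to 0.574 ± 0.0564 FPKM. DCN had means of 0.0977 FPKM with DMSO and 0.0943 FPKM with BCT. The part of these markers in the results for the sterol genes was not tested. In bulk RNA, fewer cells with a transcript and less of it per cell cannot be told apart.

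Transcripts of nearly the whole route from farnesyl diphosphate to cholesterol had lower FPKM in BCT-treated cells. FPKM is relative to the library, and the amount per cell was not measured. Of the 9 genes, 8 were called lower and 0 higher, against 17.8% of all tested genes called lower. Their median log2 fold change was -2.33, against -0.04 for all genes, and 7 of the 9 were still called lower after scaling to equal sums, where SC5D changed sign to 0.53 and CYP51A1 lost its call at -0.20. In all 9 genes each BCT sample lay below each DMSO sample, which was also so for 44.3% of all tested genes. Summed over the 9 genes, the level was 1194 ± 86.2 FPKM with DMSO and 303.6 ± 24.6 FPKM with BCT (SD, n = 3 each). The smallest p of an exact permutation test between groups of 3 is 0.1, and single genes were therefore judged by the fit across all genes.

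**Figure D1:**
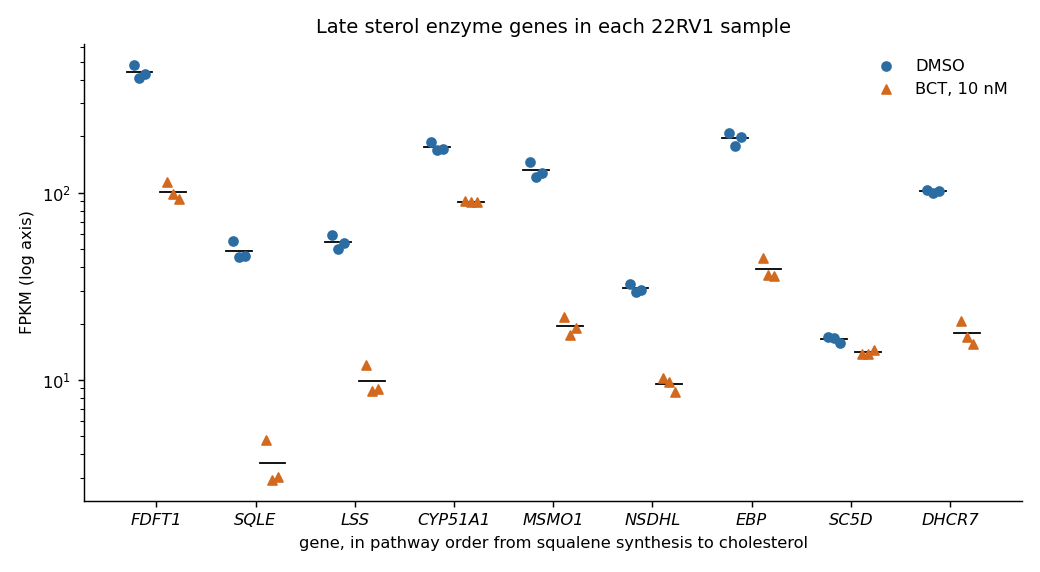
FPKM (log axis) of the 9 genes in each of the 6 samples, in pathway order, with DMSO as blue circles, BCT as orange triangles and the mean of each group as a black line. The groups are far apart in SQLE, MSMO1 and DHCR7, closer in CYP51A1, and nearly touch in SC5D, where DMSO spans 15.7 to 17.04 FPKM and BCT 13.7 to 14.5 FPKM.

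FDFT1 encodes squalene synthase, which joins farnesyl diphosphate units into squalene and is the first enzyme used only for sterols. It was the most abundant of the 9 transcripts, at 481.9, 410.6 and 430.2 FPKM with DMSO and 113.6, 98.1 and 92.0 FPKM with BCT. The lowest DMSO sample was still several times the highest BCT sample. The gene fell by 2.12 on the log2 scale (standard error 0.090, adjusted p = 6.0e-07, limma with Benjamini-Hochberg adjustment), to 23.0% of the DMSO level. On hg19 the files place it on chromosome 8 from 11653082 to 11696818, counted from 1, as a protein-coding gene whose MANE transcript has 8 exons.

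SQLE encodes squalene epoxidase, a flavoprotein monooxygenase often described as the rate-limiting enzyme of the late pathway. It showed the deepest fall of the 9, from 55.0, 45.1 and 45.9 FPKM with DMSO to 4.80, 2.92 and 3.03 FPKM with BCT. BCT replicate 1 kept more of the transcript than the other BCT samples, yet stood far under every DMSO sample. The log2 fold change was -3.76 (standard error 0.18, 95% interval -4.17 to -3.35, adjusted p = 8.4e-07, limma with Benjamini-Hochberg adjustment). It was -3.98 without BCT replicate 1 and -3.67 without DMSO replicate 1. Only 7.36% of the DMSO level was left, and SQLE ranked 28 of the 12729 genes when these were ordered from the most negative log2 fold change. The gene spans 126010720 to 126034525 of chromosome 8 (hg19) and has 11 exons.

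LSS encodes lanosterol synthase, the cyclase that folds the epoxide of squalene into the first sterol of the pathway. Its values were 59.2, 50.2 and 53.6 FPKM with DMSO against 11.95, 8.69 and 8.93 FPKM with BCT. The groups were far apart, with BCT replicate 1 again the highest of its group. The log2 fold change was -2.46 (standard error 0.12) and the level left was 18.1%. LSS lies on chromosome 21 from 47608360 to 47648738 and has 22 exons, the most of the 9 genes. Its transcript shared a stretch of at least 100 bases at 97% identity or more with 2 unnamed genes, which may have taken some of its reads. The longest such stretch was 452 bases, against 4886 bases of the MANE transcript.

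CYP51A1 encodes the cytochrome P450 that removes the first methyl group from lanosterol. It changed much less, from 185.4, 168.6 and 171.5 FPKM to 90.4, 88.8 and 89.2 FPKM. The BCT samples were nearly equal (SD 0.836 FPKM), and the level left was 51.1%. The difference on the log2 scale, -0.97 (standard error 0.051, 95% interval -1.09 to -0.85, adjusted p = 1.2e-06, limma with Benjamini-Hochberg adjustment), was only just past the threshold of 0.85. It was no longer called after quantile normalization (-0.73), after scaling to equal sums with or without MIR6087 (-0.20 and -0.58), or in a test against the threshold itself (adjusted p = 0.116, limma). The files list CYP51A1, CYP51A1-AS1 and LRRD1 at one joint position, chromosome 7 from 91741463 to 91810039. CYP51A1-AS1 was at 0.319 to 0.553 FPKM with DMSO and 0.298 to 0.454 FPKM with BCT, and LRRD1 did not exceed 0.169 FPKM in any sample. The CYP51A1 transcript also shared a stretch of at least 100 bases at 97% identity or more with the pseudogene CYP51A1P2 and with 2 unnamed genes. The longest such stretch was 2846 bases, against 3155 bases of the MANE transcript, so reads could have been divided among these genes.

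MSMO1 and NSDHL act in turn on the methyl groups that remain on the ring. MSMO1, the methylsterol monooxygenase, had 145.7, 121.5 and 127.6 FPKM under DMSO and 21.6, 17.3 and 19.0 FPKM with BCT. The difference of -2.77 on the log2 scale (standard error 0.095, adjusted p = 3.1e-07, limma with Benjamini-Hochberg adjustment) was the next largest after SQLE, with 14.7% of the DMSO level left. NSDHL, the dehydrogenase that works on the product of MSMO1, had 32.6, 29.4 and 30.3 FPKM under DMSO and 10.2, 9.75 and 8.66 FPKM with BCT. It kept a larger part, 31.0%, and fell by 1.68 on the log2 scale (standard error 0.074). Neither gene overlapped between the groups. MSMO1 lies on chromosome 4 from 166248818 to 166264314 with 6 exons, and NSDHL on chromosome X from 151999511 to 152037907 with 8 exons.

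The last members of the pathway were EBP, SC5D and DHCR7. EBP, the sterol isomerase that moves a ring double bond, had 208.8, 177.4 and 198.1 FPKM under DMSO and 44.7, 36.1 and 35.8 FPKM under BCT. It fell by 2.33 on the log2 scale (standard error 0.098), with no overlap. DHCR7, the reductase that turns dehydrocholesterol into cholesterol, had DMSO values of 102.8, 99.7 and 101.7 FPKM against 20.7, 16.8 and 15.6 FPKM with BCT. Its log2 fold change was -2.52 (standard error 0.096, adjusted p = 4.1e-07, limma with Benjamini-Hochberg adjustment), with 17.5% left. EBP lies on chromosome X from 48380164 to 48387104 with 5 exons, and DHCR7 on chromosome 11 from 71145457 to 71159477 with 9 exons. The EBP transcript shared such a stretch with 1 unnamed gene, over 642 bases against 1125 bases of its MANE transcript.

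SC5D, the desaturase whose product is the substrate of DHCR7, stood apart from the other members. It had 17.04, 16.7 and 15.7 FPKM under DMSO and 13.8, 13.7 and 14.5 FPKM under BCT. The groups did not overlap, but the gap between them was about as wide as the spread within DMSO. With a log2 fold change of -0.23 (standard error 0.055, 95% interval -0.36 to -0.10), SC5D passed the p threshold (adjusted p = 0.0046, limma with Benjamini-Hochberg adjustment) but not the fold threshold, and 85.2% of the DMSO level was left. Its sign turned positive after scaling to equal sums (0.53, or 0.16 without MIR6087). SC5D lies on chromosome 11 from 121163388 to 121184119, and its MANE transcript of 6854 bases in 5 exons is the longest of the 9.

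The 9 genes therefore did not move by a common factor. Of the 36 pairs of members, 9 had overlapping 95% intervals of the log2 fold change, all of them among FDFT1, LSS, MSMO1, EBP and DHCR7, which lay between -2.77 and -2.12. The intervals of SQLE, NSDHL, CYP51A1 and SC5D overlapped with those of no other member. Differences between genes were not tested beyond these intervals. Without BCT replicate 1 the log2 fold changes ran from -3.98 for SQLE to -0.22 for SC5D, and the median was -2.43. Without DMSO replicate 1 they ran from -3.67 for SQLE to -0.20 for SC5D, and the median was -2.27. The same 8 genes were called in both cases.

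**Figure D2:**
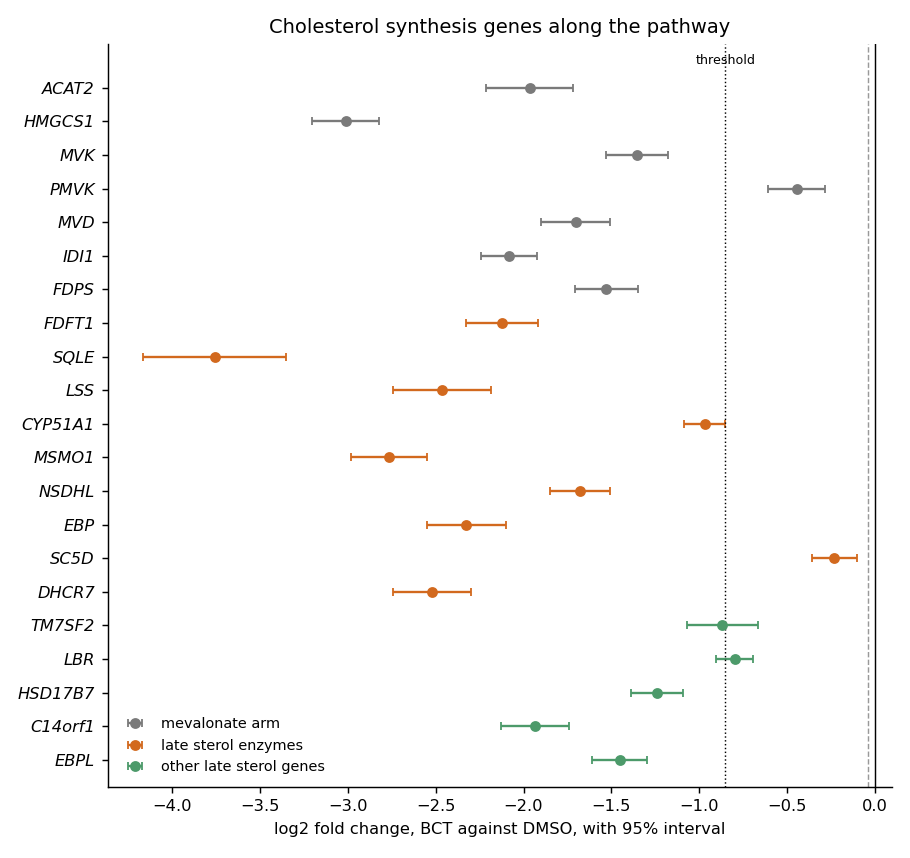
Log2 fold change of BCT against DMSO with its 95% interval for 21 genes, from the mevalonate arm (grey) through the 9 late sterol enzyme genes (orange) to other late sterol genes (green). The dotted line marks the threshold of -0.85 and the dashed line the median of all genes, -0.04. SQLE lies farthest left at -3.76, and SC5D, PMVK and LBR are to the right of the threshold at -0.23, -0.44 and -0.80.

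The order of the levels changed with treatment. With DMSO it ran FDFT1 (440.9 FPKM), EBP (194.8), CYP51A1 (175.2), MSMO1 (131.6), DHCR7 (101.4), LSS (54.4), SQLE (48.7), NSDHL (30.8) and SC5D (16.5). In that order the samples of EBP and CYP51A1 overlapped, as did those of LSS and SQLE. With BCT it ran FDFT1 (101.2 FPKM), CYP51A1 (89.5), EBP (38.9), MSMO1 (19.3), DHCR7 (17.7), SC5D (14.03), LSS (9.86), NSDHL (9.55) and SQLE (3.58), with overlap between MSMO1 and DHCR7 and between LSS and NSDHL. SC5D thus moved from the lowest place to the sixth, and SQLE took the lowest place.

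Ratios between members within a sample do not depend on how the sample was scaled by a single factor. The FPKM of SC5D was 0.166, 0.167 and 0.154 of that of DHCR7 with DMSO, and 0.668, 0.815 and 0.931 of it with BCT. Thus the desaturase transcript came close to that of the reductase acting after it. The ratio of FDFT1 to SQLE went from 9.08 ± 0.305 to 29.2 ± 5.08 (SD, n = 3 each), and that of CYP51A1 to SQLE from 3.62 ± 0.213 to 26.2 ± 6.44. At the entry to the sterol branch, FDPS, which makes farnesyl diphosphate, stood at 0.714 ± 0.0310 of FDFT1 with DMSO and at 1.08 ± 0.0385 with BCT. DMSO and BCT samples were fully separated in each of these 4 ratios, which were picked after the values were seen and were not tested.

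Promoter sequences are shown for MSMO1 and DHCR7, which had large falls, and for contrast for CYP51A1 and SC5D, which had the smallest changes. Each sequence holds the 250 bases before a RefSeq gene start (GRCh38.p14), read 5′ to 3′ on the strand of the gene. Each was found once on that strand of its own chromosome in GRCh37, and other chromosomes were not searched. Capitals mark CCAAT, the box bound by NF-Y, and GGGCGG, the box bound by Sp1, on either strand, where the reverse strand reads ATTGG and CCGCCC. Both factors are known to work with SREBP at sterol genes.
MSMO1 (chr4:166248571-166248820, plus strand): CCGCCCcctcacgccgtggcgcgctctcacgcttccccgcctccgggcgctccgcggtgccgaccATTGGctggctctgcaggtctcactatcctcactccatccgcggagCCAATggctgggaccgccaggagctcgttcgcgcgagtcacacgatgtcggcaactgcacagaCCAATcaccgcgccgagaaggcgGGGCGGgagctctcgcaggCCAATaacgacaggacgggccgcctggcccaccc
DHCR7 (chr11:71159440-71159689, minus strand): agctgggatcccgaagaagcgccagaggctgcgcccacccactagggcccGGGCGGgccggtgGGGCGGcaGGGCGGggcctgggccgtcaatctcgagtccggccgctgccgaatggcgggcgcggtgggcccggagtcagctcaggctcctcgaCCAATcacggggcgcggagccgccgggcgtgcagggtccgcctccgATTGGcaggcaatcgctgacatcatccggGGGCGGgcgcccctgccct
CYP51A1 (chr7:91763792-91764041, minus strand): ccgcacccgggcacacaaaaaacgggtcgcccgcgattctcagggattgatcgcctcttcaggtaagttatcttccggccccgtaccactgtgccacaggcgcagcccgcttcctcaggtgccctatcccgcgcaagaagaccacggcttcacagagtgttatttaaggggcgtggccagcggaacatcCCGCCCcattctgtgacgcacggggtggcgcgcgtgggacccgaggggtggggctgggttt
SC5D (chr11:121163230-121163479, plus strand): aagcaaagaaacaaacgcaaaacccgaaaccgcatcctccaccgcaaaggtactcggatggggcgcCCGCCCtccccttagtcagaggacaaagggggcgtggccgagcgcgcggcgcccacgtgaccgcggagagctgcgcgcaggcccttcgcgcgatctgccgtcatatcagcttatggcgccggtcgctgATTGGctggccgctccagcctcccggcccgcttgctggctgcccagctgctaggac

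The MSMO1 window held CCAAT 4 times, starting 185, 139, 76 and 34 bases before the gene start, and GGGCGG 2 times. The DHCR7 window shown held CCAAT 2 times, at 94 and 48 bases, and GGGCGG 4 times, whereas a window before another start of that gene (chr11:71160090-71160339) held 0 matches to either. CYP51A1 had GGGCGG once, at 61 bases, and no CCAAT in this window, whereas SC5D had both motifs 1 time each. Among the members not shown, NSDHL held CCAAT 5 times and GGGCGG 0 times. EBP held them 3 times and 1 time, and LSS 1 time and 6 times. Windows of the 7 members LSS, CYP51A1, MSMO1, NSDHL, EBP, SC5D and DHCR7 were searched on both strands (SC5D and DHCR7 have 2 windows each), and FDFT1 and SQLE were not analysed here. Counting a member when any of its windows held the motif, CCAAT was found in 6 of the 7 members and GGGCGG in 6 of the 7. Over all 35116 RefSeq windows of the same length, 32.0% held CCAAT and 42.6% held GGGCGG. These shares are per window and not per gene, so they are not on the same unit as the member counts. In the mevalonate arm, counted per gene, CCAAT was in 5 of the 6 genes with a window and GGGCGG in 6 of the 6. A strict form of the sterol regulatory element, TCACNCCAC, was in 0 of the 7 and in 0.9% of all windows, and the E box CACGTG was in 1 of the 7, SC5D, against 6.3%. Whether the boxes go with the size of the change was not tested. The matches are letters in a window and not measured binding.

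In the deposited annotation, 7 of the 9 genes carry GO terms, and MSMO1 and SC5D carry none. All 7 are placed in the endoplasmic reticulum membrane, a term held by 3.72% of the tested genes with annotation. The term for cholesterol biosynthesis is held by 6 of the 7, SQLE being the exception, against 0.224% of those genes. Beyond the members, 17 tested genes carried that term, of which 12 were called lower and 1 higher, with a median log2 fold change of -1.35. Most of these 17 are also in the gene lists described below. The 7 in none of those lists had 3 called lower and 1 higher, with a median of -0.57. The one called higher was PRKAA2, a catalytic subunit of the kinase AMPK, which rose from 2.68 ± 0.0794 to 9.03 ± 1.08 FPKM. PRKAA2 was named after its value was seen.

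The step before squalene is the mevalonate arm, and 7 of its 8 genes were called lower and 0 higher, with a median log2 fold change of -1.62 against -2.33 for the late enzymes. HMGCS1, the synthase of hydroxymethylglutaryl-CoA, went from 119.3 ± 13.8 down to 14.7 ± 0.677 FPKM (SD, n = 3 each), or -3.01 on the log2 scale. IDI1 (-2.08), ACAT2 (-1.97), MVD (-1.70), FDPS (-1.53) and MVK (-1.35), which act between acetyl-CoA and farnesyl diphosphate, fell less on the log2 scale. PMVK, the phosphomevalonate kinase, was not called at -0.44, and its sign changed to positive after scaling to equal sums. Both arms thus held a member far less changed than its neighbors, PMVK in the first and SC5D in the second.

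Other genes of late sterol synthesis were called lower in 5 of 6 cases and higher in 0, with a median of -1.35. C14orf1, the homolog of a yeast scaffold of the demethylation complex, was at -1.93, EBPL, a relative of EBP, at -1.45, and HSD17B7, the ketosterol reductase that works after NSDHL, at -1.24. HSD17B7 has a pseudogene of very similar sequence that may share its reads. The sterol reductases TM7SF2 and LBR were the least changed, at -0.87 and -0.80, and LBR was not called. After scaling to equal sums, 4 genes of the mevalonate arm and 2 of this list were called lower.

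Several of the 9 enzymes work with electron donors or other binding partners, whose genes differed among themselves. Of 6 such genes 3 were called lower and 1, SEC14L2, higher, with a median of -0.70. Over all tested genes 17.8% were called lower and 13.9% higher. After scaling to equal sums the median became 0.06, and 1 was called lower and 1 higher. CYB5A, a cytochrome b5 that passes electrons to the methyl oxidase and the desaturase, fell from 81.2 ± 3.33 to 18.1 ± 2.36 FPKM (log2 fold change -2.17). CYB5R3, its reductase, was at -1.30 and PGRMC1, a heme protein that binds CYP51A1, at -1.10. POR, which serves SQLE and CYP51A1, was at -0.31 and CYB5B, the cytochrome b5 of the outer mitochondrial membrane, at -0.25. Neither was called, and both turned positive after scaling to equal sums with or without MIR6087. SEC14L2, a lipid-binding protein that stimulates squalene epoxidation, rose from 3.81 ± 0.230 to 7.27 ± 0.504 FPKM, or 0.92 on the log2 scale.

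Of the 8 genes on the other branches from farnesyl diphosphate, 0 were called in either direction (limma). Still, 7 had an adjusted p below 0.05 (also 7 at an unadjusted p below 0.05) and missed the fold threshold. The share of all tested genes with such a p is not given here, so these counts do not set the list apart. In 7 of the 8 the groups did not overlap, which was also so for 10854 of all 12729 tested genes. PDSS1, of ubiquinone synthesis, was at -0.84, FNTA, a prenyltransferase subunit, at 0.78 and GGPS1, which makes geranylgeranyl diphosphate, at 0.77, each close to the threshold. PDSS1 was called lower without DMSO replicate 3 (-0.90) or BCT replicate 1 (-0.89). The list median was -0.11, or 0.66 after scaling to equal sums, where 3 of the 8 were called higher. Under that scaling 5614 of all 12729 tested genes were also called higher. Relative to all genes under the same scaling, these medians were -0.07 and -0.06, against -2.29 and -2.28 for the 9 sterol enzyme genes.

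Among 13 genes that control SREBP or bring in cholesterol, 7 were called lower and 1 higher, with a median of -1.76. The shares over all tested genes were 17.8% lower and 13.9% higher. INSIG1, which holds SREBP in the endoplasmic reticulum, changed the most, from 125.1 ± 13.3 to 4.97 ± 2.57 FPKM (log2 fold change -4.73). The transcripts of the transcription factors themselves fell, SREBF2 from 117.4 ± 3.45 to 25.9 ± 2.50 FPKM and SREBF1 from 77.2 ± 2.29 to 18.0 ± 3.43 FPKM (named after their values were seen). SCAP, their escort protein, also named after its value was seen, overlapped between the groups at 35.4 ± 0.938 and 30.2 ± 3.69 FPKM. MYLIP, a ubiquitin ligase and a known target of liver X receptors, rose from 6.50 ± 0.175 to 14.2 ± 0.757 FPKM.

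Genes for the storage, oxidation and efflux of cholesterol were sparse in these cells, and 4 of 8 (ABCA1, ABCG1, CH25H and CYP27A1) did not reach the mean of 1 FPKM needed for the test. Of the 4 tested, LIPA, the lysosomal lipase that frees cholesterol, was called lower at -2.02. NR1H3, which encodes a liver X receptor, was called higher at 0.98, while SOAT1, which esterifies cholesterol, was at -0.60. These calls were 1 of 4 in each direction, against 17.8% lower and 13.9% higher over all tested genes. Of 5 genes for the degradation of sterol enzymes 0 were called (limma). Of these 5, 4 had an adjusted and 4 an unadjusted p below 0.05, all short of the fold threshold. In 4 of the 5 the groups did not overlap, as in 10854 of all 12729 tested genes. MARCH6, a ligase known to act on SQLE, was at -0.48, which turned positive after scaling to equal sums. Of 8 fatty acid synthesis genes 7 were called lower, led by SCD (-3.72), FADS2 (-3.30) and FADS1 (-1.99), which desaturate fatty acids. After scaling to equal sums 4 of the 8 were called lower, and the list median moved from -1.62 to -0.85. FADS1 and FADS2 are listed at one joint position in the files.

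The genes outside these lists whose pattern over the 6 samples was nearest to the mean of the 9 members were HPRT1, RPS24, HDGF, TM7SF3 and ANP32B, each with a Pearson correlation of 0.9999 on the log2 scale. The samples fall into 2 groups by treatment, so this likeness mostly describes the step between the groups, and 38.7% of the tested genes had a correlation above 0.9. HPRT1, a purine salvage enzyme often used as a reference gene, fell from 78.5 ± 3.45 to 26.2 ± 2.32 FPKM. Among the members themselves the correlation with their mean was 0.9298 for SC5D and 0.9969 or more for the others.

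**Figure D3:**
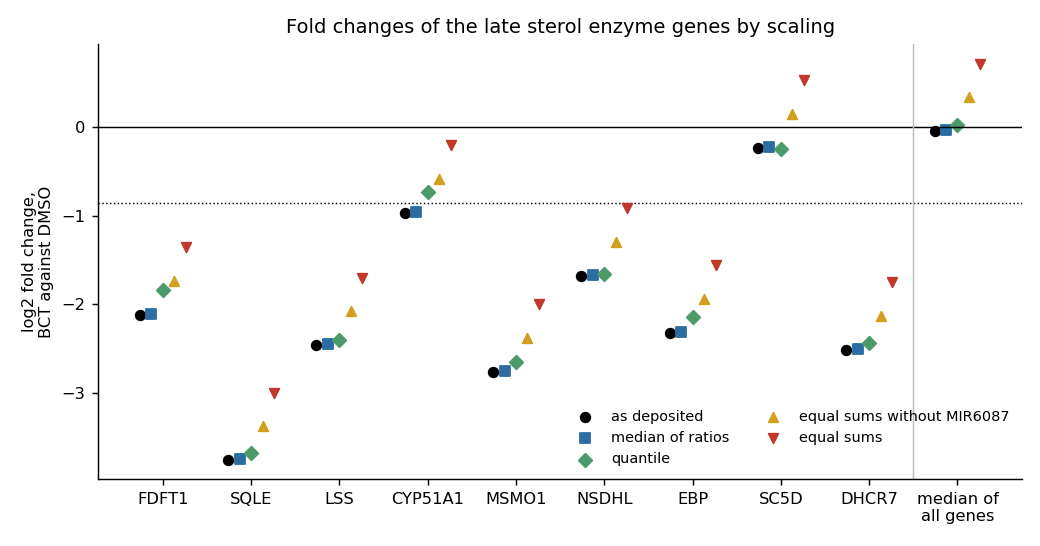
Log2 fold change of BCT against DMSO for each of the 9 genes, and the median of all tested genes at the right, under 5 scalings of the samples. The dotted line marks -0.85. The 7 genes other than CYP51A1 and SC5D are below it under each of the 5, from -3.76 for SQLE as deposited to -0.92 for NSDHL after scaling to equal sums.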

How the data were processed

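RNA from 6 samples of 22RV1 cells was sequenced. The authors trimmed the reads with Trimmomatic (version 0.38 in the submitters' processing notes), used HISAT2 for alignment to hg19 and StringTie for assembly, and deposited gene-level FPKM values (26255 genes, 1 file per sample). The annotation is not given in the sources used here, and the processing notes also name HTSeq without its role. The library kit does not mark strand, so reads from where a gene and its antisense partner overlap cannot be assigned by strand.

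Samples were grouped by the agent in the labels. From the deposited FPKM values, log2(FPKM + 0.1) was compared with limma 3.58.1 in R 4.3.3 (mean-variance trend, Benjamini-Hochberg adjustment) over the 12729 genes whose mean reached 1 FPKM, without rescaling. The step was tested on simulated data. Positions are from the files, with 1 added to the start, exons from GENCODE on GRCh37, and promoters from RefSeq. Shared stretches were sought with blastn. FPKM gives no read counts, so counting intervals were not computed and no count test was run.

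The members and the 8 companion lists were chosen with earlier results of these data known. Named genes are all members and all tested genes of the mevalonate, the other late sterol, and the electron donor and binding partner lists. They also include the 3 largest changes of the other lists with any called in the opposite direction, and the 5 genes nearest in pattern. Some genes that this rule names are not reported here, although the counts and medians of the lists include them. Alternatives covered the pseudocount, the filter, 4 scalings, the variance model, the replicate block, the FDR, the fold threshold and each sample left out. No significance test was made of any list.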

Additional observations from a re-analysis of the deposited data

How the results depend on the processing

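Of 171 values for the 9 genes under 19 alternatives, 165 kept their direction and their side of the threshold, 4 lost the call and 2 changed sign. The 4 are all CYP51A1, with scaling to equal sums (-0.20), without MIR6087 (-0.58), with quantile normalization (-0.73) and in the test against the threshold (-0.97). The 2 are SC5D, with scaling to equal sums (0.53) and without MIR6087 (0.16). The number called lower was 7 or 8 in each alternative. Their median moved from -2.33 to -1.56 with equal sums and to -1.94 without MIR6087. Relative to all genes under the same scaling it was -2.28 in both.

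With equal sums, 19 genes of the companion lists were called lower against 30 and 10 higher against 3, and 6282 genes of all tested were called (668 lower and 5614 higher) against 4027 (2263 lower and 1764 higher). Without MIR6087, 1208 were lower and 3370 higher. The test against the threshold called 2425. Without a filter 2657 were higher, and with a mean of at least 5 FPKM 1150 were higher. Among all genes with the deposited cholesterol biosynthesis term, a comparison added after the data were seen, 18 were called lower. Leaving out 1 sample gave 3834 to 4420 genes called.

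The numbers 1 to 3 are shared by both groups, but the correlations of the deviations of same-numbered samples were 0.116, 0.033 and 0.034, so a shared number is not taken as pairing. With the replicate block 4033 genes were called, the 8 calls among the sterol genes stayed, and their median was -2.33. FPKM holds no counts, so the precision that depth gives to each gene is unknown.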
